A study of Mus musculus with 16 samples.

Results

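Etomoxir added to SR-3420 is a comparison of 5 RNA-seq samples of brown adipocytes, 3 that received etomoxir and SR-3420 against 2 that received SR-3420 alone, out of 16 samples in the whole series. The samples were picked by the treatment in the names of the count columns, and the comparison asks which genes differ in the lipolytic state once the import of fatty acids into mitochondria is blocked. All cells were mouse BAT-LgT cells, 1 line of brown preadipocytes made immortal by the SV40 large T antigen, which were differentiated in culture and treated on day 7. Every sample is thus a culture of the same line, and no animals were compared. Cells of the etomoxir + SR-3420 group were given 50 µM etomoxir for 1 h and then 10 µM SR-3420 for 3 h, whereas cells of the SR-3420 group had no inhibitor before the same 3 h of SR-3420. This dose of SR-3420 is that of the sample labels, and the study's figure legend gives a different one. Of the other 11 samples, 5 received neither SR-3420 nor triacsin C (2 with vehicle, which was DMSO, and 3 with 50 µM etomoxir). These 5 served to measure what etomoxir did without SR-3420. The remaining 6 received 5 µM triacsin C alone or with SR-3420 and entered the model's estimate of the spread. In fits that take account of the replicate number, all 16 samples set its effect and so also bear on the log2 fold changes.

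The counts of reads on genes summed to 19156037 and 15667121 in SR-3420 replicates 1 and 3, and to 25670624, 13173278 and 16512525 in etomoxir + SR-3420 replicates 1, 2 and 3. Values of single samples are given below in this order, as normalized counts, which are counts scaled to a common library size over the 16 samples. The study describes its replicates as independent experiments, each run in technical duplicate, but the labels do not say what a replicate number stands for. The p-values below measure differences between samples of 1 cell line (n = 2 for SR-3420, n = 3 for etomoxir + SR-3420). The spread they are set against was estimated over the 6 groups of all 16 samples, unless a fit of fewer samples is named. SR-3420 replicate 2 and vehicle replicate 1 were not analysed here.

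Lipolysis releases fatty acids from the triacylglycerol of lipid droplets, and its first lipase, ATGL, needs the protein ABHD5 to become active. SR-3420 is a synthetic ligand that frees ABHD5, so that lipolysis runs without a β-adrenergic agonist. The fatty acids are joined to coenzyme A and then either esterified again or passed to carnitine by CPT1 at the outer mitochondrial membrane, carried across the inner membrane and oxidized. Etomoxir inhibits CPT1. Fatty acids and their derivatives are also ligands of nuclear receptors, among them the PPARs, which control many genes of lipid use.

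The samples of a group differed from each other along a leading direction. In the differences of each of the 16 samples from the mean of its group, the leading component held 66.5% of the variance and placed etomoxir + SR-3420 replicates 1, 2 and 3 at 42.0, −5.68 and −36.3, and SR-3420 replicate 1 at 25.2 and replicate 3 at −25.2. A group of 2 samples gives values of equal size and opposite sign by construction, so for SR-3420 only the size and which sample is positive carry information. Samples with the same number were alike in part: the deviations of SR-3420 and etomoxir + SR-3420 correlated at 0.75 for replicate 1 and 0.63 for replicate 3, but etomoxir + SR-3420 replicate 2 correlated at −0.24 to −0.01 with the 4 other samples of its number, all of which enter its block. The spread within groups went along with the base composition of the genes. Across 12616 genes with a known GC content, which are not independent replicates, the deviation of a sample from its group correlated with GC content at 0.63 and −0.63 in the SR-3420 samples (opposite by construction) and at 0.78, −0.17 and −0.73 in the etomoxir + SR-3420 samples. Hence the comparison was made in 4 fits: without a block, with the replicate number as a block, and each of these again after a smooth trend of the counts over GC content had been removed in every sample. Removing the trend takes out any difference linked to GC content, whatever its source.

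With the block, 12 of 17 genes of lipid droplets, 6 of 14 of triacylglycerol synthesis, 7 of 12 of the carnitine shuttle and its control and 9 of 16 of brown fat function were called lower with etomoxir and SR-3420 than with SR-3420 alone at an adjusted p under 0.05 (8.42% of all genes tested), and 6 of 23 immediate early and AP-1 factors, among them Egr1 and Klf2, were called higher (5.95%). With neither the block nor a GC correction 0 genes of these 5 lists passed in edgeR, where 1279 genes had an unadjusted p under 0.05 and DESeq2 called 89 genes in all. Removal of the GC trend with no block gave 2, 3, 3 and 1 lower (0.904%) and 4 higher (0.127%), and removal with the block gave 13, 6, 5 and 8 lower (8.79%) and 12 higher (4.95%). Over all genes, without block and correction, 1 gene of 12786 tested (0.00782%) passed in edgeR's quasi-likelihood test, where p-values were adjusted after Benjamini and Hochberg. This gene was Pfkfb1.

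Pfkfb1 codes for a form of the bifunctional enzyme that makes and degrades the sugar phosphate which activates phosphofructokinase, the control step of glycolysis. It lies at chrX:147024464-147078421 on mm9. Its normalized counts were 393 and 403 in the SR-3420 samples and 184, 204 and 213 in the etomoxir + SR-3420 samples. The groups did not overlap, and the samples within each group lay close together whatever their replicate number. Pfkfb1 fell by 0.99 on the log2 scale (SE 0.13, adjusted p = 0.0461, edgeR's quasi-likelihood test), and by 1.00 with the block (adjusted p = 0.00607). Its log2 fold change with the GC trend removed was −1.05 (adjusted p = 0.00141, edgeR). When 1 sample was left out the log2 fold change of Pfkfb1 stayed between −1.04 and −0.93, but the adjusted p without the block was 0.625 and 0.264 without SR-3420 replicate 1 or 3, 0.159 and 0.179 without etomoxir + SR-3420 replicate 1 or 2, and 0.0277 without replicate 3. Without SR-3420, Pfkfb1 stood at 603 and 540.1 in the vehicle samples and at 477, 479 and 495 in the etomoxir samples, and the difference between the etomoxir effects with and without SR-3420 did not pass (−0.77, SE 0.19, adjusted p = 0.616 in edgeR with the block).

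At an unadjusted p under 0.05, 1279 genes differed without the block, 385 higher and 894 lower. With the block, edgeR called 1838 genes (14.4%), 761 higher (5.95%) and 1077 lower (8.42%). The balance of directions was not the same in other fits with the block: DESeq2 called 1661 higher and 1376 lower, edgeR on only the 5 samples compared called 1331 higher and 722 lower, and edgeR on the 10 samples without triacsin C called 1665 higher and 1700 lower. The gene lists below were not counted in those fits. In the fit with the GC trend removed and no block it called 130 of 12616 genes (1.03%), 16 higher (0.127%) and 114 lower (0.904%), and with both it called 1733 (13.7%), 624 higher (4.95%) and 1109 lower (8.79%). Of the 130 genes, 108 were among the 1838 and all 130 among the 1733, in the same direction, and 1040 genes were shared by the latter lists (56.6% of the 1838 and 60% of the 1733). The samples of the 2 groups did not overlap for 2337 genes (18.3%), which include 601 of the 1077 genes that fell with the block and 199 of the 761 that rose.

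Single samples moved these counts. Without the block the count was 0 when SR-3420 replicate 1 or 3 or etomoxir + SR-3420 replicate 1 or 2 was left out (384, 2147, 2924 and 592 genes at an unadjusted p under 0.05 in edgeR), and 12 without etomoxir + SR-3420 replicate 3. With no sample left out, the fits of all 16 samples called 89 genes in DESeq2 (8 higher, 81 lower) and 543 in limma with an estimated correlation within replicate numbers (96 higher, 447 lower). With the block the count was 0 without SR-3420 replicate 1 (3193 genes at an unadjusted p under 0.05), 1 without replicate 3, and 3862 (2000 higher, 1862 lower), 175 (26 and 149) and 456 (49 and 407) without etomoxir + SR-3420 replicates 1, 2 and 3. It was, with the GC trend removed and no block, 1 and 264 without the SR-3420 samples and 243, 35 and 414 without the etomoxir + SR-3420 samples. With both it was 64, 730, 1665, 986 and 1848 in the same order.

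The genes called with the block differed in GC content by direction. Genes that rose had a median of 43.2% and genes that fell 55.5%, against 50.7% of all genes tested, and the log2 fold change correlated with GC content across genes at −0.63. Within single pairs of samples of the same number the correlation was −0.32 for replicate 1 and −0.68 for replicate 3, and for etomoxir against vehicle it was −0.29. After the trend was removed together with the block, genes that rose had a median GC content of 51.4% and genes that fell 52.1%. The part of GC content in the calls was not tested. Median counted lengths were 3671 bases for genes that rose and 2232 bases for genes that fell with the block, against 2786 bases over all genes tested.

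**Figure D1:**
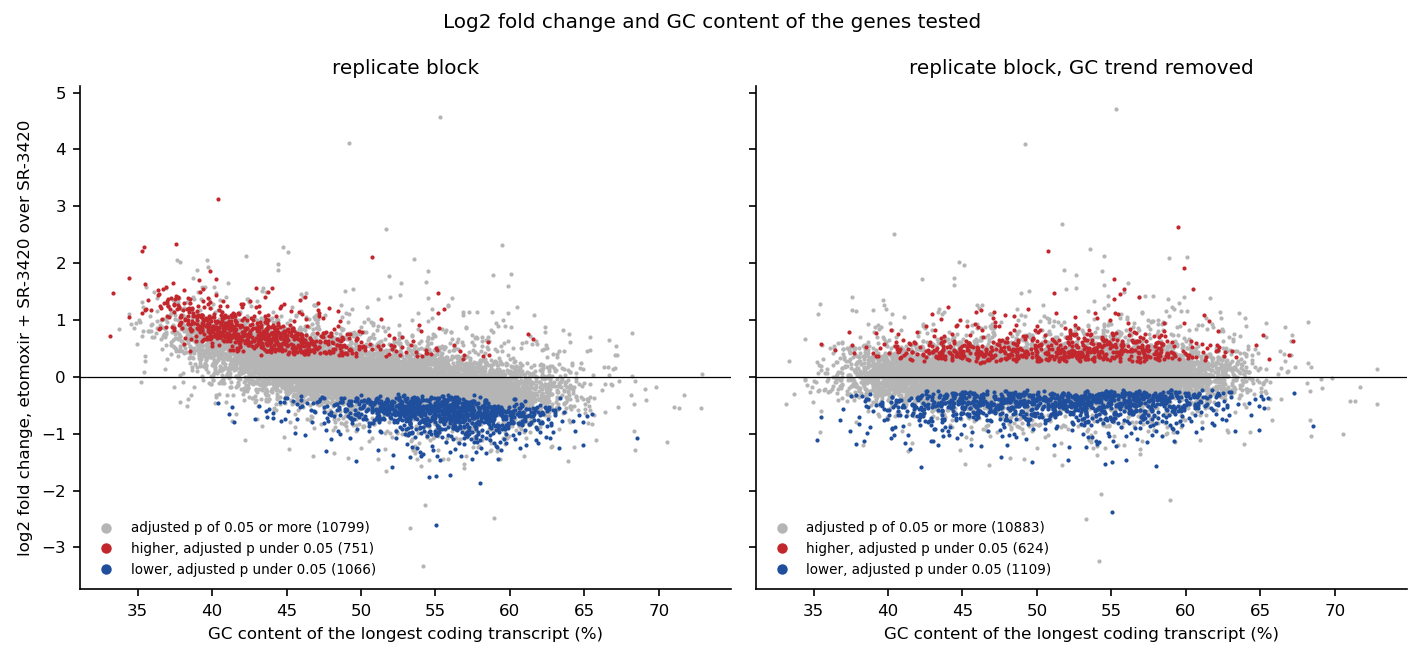
Log2 fold change of etomoxir + SR-3420 over SR-3420 on the y axis against the GC content of each gene's longest coding transcript in percent on the x axis, with the replicate block (left) and after the GC trend was also removed (right). Each point is a gene, coloured where its adjusted p was under 0.05: 751 genes with a known GC content rose and 1066 fell on the left, where the rises sit at low and the falls at high GC content, and 624 rose and 1109 fell on the right, where they spread over the whole range.

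The abundant markers of the cells, such as Fabp4, Adipoq and Plin1, are those of any adipocyte, and Ucp1 and Dio2, which mark brown ones, were low. Of 13 brown adipocyte markers 12 were detected well enough to be tested and Dio2 was not, with at most 2 counts in any of the 5 samples. Summed per kb of counted length, the markers stood at 151166 and 157800 normalized counts in the SR-3420 samples and at 109928, 91302 and 157789 in the etomoxir + SR-3420 samples, and Fabp4 was the most abundant of them. Ucp1, the uncoupling protein that defines brown fat, had between 18.2 and 27.6 normalized counts per kb in the 5 samples, against a mean of 96167 for Fabp4, and lay below the summed macrophage markers (66.1 to 106). Cox8b had a mean of 1908 and Cidea of 270. With the block 6 of the 12 markers tested fell (8.42% of all genes tested) and none rose (5.95%). With neither the block nor a GC correction none passed in edgeR. With the block and the GC trend removed 9 fell and none rose. With the GC trend removed and no block the smallest adjusted p was 0.0527, for Pparg (edgeR).

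Markers of preadipocytes or fibroblasts summed to 12540 and 9230 normalized counts per kb in the SR-3420 samples and to 14725, 10838 and 7358 in the etomoxir + SR-3420 samples. Col1a1 was the most abundant, and 0 of the 8 markers tested passed in edgeR in any of the 4 fits. Markers of macrophages summed to between 66.1 and 106 normalized counts per kb, those of endothelial cells to between 9.95 and 15.8 and those of muscle to between 53.2 and 119. Emr1 reached at most 2 counts in a sample and Myf5 was at 0 in all 5, and the muscle marker Des fell with the block. In these bulk samples fewer differentiated cells and less RNA of a gene per cell cannot be told apart.

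The genes with the largest changes in the fit with the block were taken among those whose mean reached 50 normalized counts and whose samples did not overlap between the groups, so that this separation is given by the choice. Among the falls was Slc25a34, a mitochondrial carrier of the inner membrane whose substrate is not settled. It had 854 and 759.9 normalized counts in the SR-3420 samples and 221, 123 and 307 in the etomoxir + SR-3420 samples. Each etomoxir + SR-3420 sample lay far below both SR-3420 samples and near the vehicle samples, at 254 and 143, and the etomoxir samples, at 282, 214 and 162. The log2 fold change was −1.87 (SE 0.31, adjusted p = 0.0198, edgeR with the block), and it was −1.57 with the GC trend removed and no block (adjusted p = 0.021, edgeR). For SR-3420 against vehicle, which shares the SR-3420 samples with this comparison, the log2 fold change was 1.97 with the block. The difference between the etomoxir effects with and without SR-3420 was −1.97 (SE 0.47) and did not pass (adjusted p = 0.616, edgeR with the block).

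Ffar4, the cell-surface receptor for long-chain unsaturated fatty acids, behaved alike. Its normalized counts were 1997 and 1408 in the SR-3420 samples, 534, 232 and 687 in the etomoxir + SR-3420 samples, 600.1 and 488 in the vehicle samples and 477, 372 and 352 in the etomoxir samples. The etomoxir + SR-3420 samples were spread around the level of vehicle. Ffar4 fell with a log2 fold change of −1.76 (SE 0.30, adjusted p = 0.0198, edgeR with the block; −1.56 and adjusted p = 0.0214 with the GC trend removed and no block). Adrb3, the main β-adrenergic receptor of adipocytes, had 11025 and 6511 normalized counts with SR-3420 and 4422, 2305 and 2842 with etomoxir added. In each group replicate 1 was the highest sample, and Adrb3 fell with a log2 fold change of −1.47 (SE 0.22, adjusted p = 0.018, edgeR with the block). For SR-3420 against vehicle, which shares samples, Adrb3 stood at −0.30 with the block. Etomoxir without SR-3420 gave −0.52 for Ffar4 and −0.57 for Adrb3 (adjusted p = 0.530 and 0.491, edgeR with the block). The difference between the etomoxir effects with and without SR-3420 was −1.24 for Ffar4 (SE 0.46) and −0.90 for Adrb3 (SE 0.32). Neither difference passed (adjusted p = 0.844 for each, edgeR with the block).

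Among the largest falls with the block were also Ncan (−1.74), Eppk1 (−1.51), Fga (−1.49), Ptpru (−1.44), Smtnl2 (−1.41) and Gprc5c (−1.39). Fga codes for the α chain of fibrinogen and Ptpru for a receptor tyrosine phosphatase. Ncan had 123 and 121 normalized counts in the SR-3420 samples and 30.3, 25 and 54.5 in the etomoxir + SR-3420 samples, and Fga had 105 and 138 against 37.8, 39.5 and 51.2. With the GC trend removed and no block, Slc25a34, Ffar4, Ncan, Fga, Adrb3, Ptpru and Gprc5c fell as well, whereas Smtnl2 had an adjusted p of 0.0628 in edgeR and Eppk1 has no GC content. Eppk1 overlaps another gene of the count table, as do Crat, Plin4, Bscl2, Tpi1, G6pdx, Trap1 and Lpcat3 below, and since the use of strand in the counting is not stated, their counts are uncertain.

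The 10 largest rises named in the fit with the block were somewhat smaller, and all but Gxylt2 had a GC content below the median of 50.7%. Lrch2 had 16.8 and 41.6 normalized counts in the SR-3420 samples and 44.6, 85.3 and 112 in the etomoxir + SR-3420 samples. The groups hardly separated, with both replicate 3 samples above the replicate 1 sample of their group. Lrch2 rose with a log2 fold change of 1.54 (SE 0.39, adjusted p = 0.0339, edgeR with the block), but with the GC trend also removed the value was 0.60 (adjusted p = 0.178), at a GC content of 36.7%. Gxylt2, an enzyme that extends the sugar chains of Notch receptors, had 36.1 and 42.5 against 81.8, 101 and 121 normalized counts at a GC content of 55.2%. It rose with a log2 fold change of 1.47 (SE 0.24, adjusted p = 0.0198, edgeR with the block), and of 1.72 with the GC trend also removed (adjusted p = 0.00219).

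The other 8 were Zfp933 (1.45), Taf9b (1.40), Psip1 (1.34), the chromatin remodeller Smarca5 (1.33), Gucy1a2 (1.28), Marcks (1.28), Zfp81 (1.27) and Map2 (1.21). These log2 fold changes, with the GC trend also removed, were 0.83, 1.01, 0.90, 0.75, 0.80, 1.01, 0.43 and 1.09, and Zfp81 no longer passed (adjusted p = 0.177, edgeR). None of the 10 passed with the GC trend removed and no block, where 916 genes were higher at an unadjusted p under 0.05. Smarca5 shows the pattern of the samples: its normalized counts were 525 and 740.0 in the SR-3420 samples and 955, 1207 and 2472 in the etomoxir + SR-3420 samples. Replicate 3 was the highest sample of each group.

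The promoters of the first 2 named genes in each direction are shown because these genes had the largest log2 fold changes among those that the choice above left. Rpl22l1, whose groups overlap, rose by more than Lrch2, and over all genes tested the log2 fold changes with the block ran from −3.33 to 4.57. They were matched by symbol in the RefSeq promoter table of build GRCm38.p6, where all 4 were found, at chr4:141623785-141624084 on the minus strand for Slc25a34, chr19:38096829-38097128 on the plus strand for Ffar4, chrX:147554032-147554331 on the minus strand for Lrch2 (the first of 2 entries) and chr6:100704484-100704783 on the plus strand for Gxylt2. Each holds the 300 bases that the table gives around the start of the gene, 5′ to 3′ on the strand of the gene, and capitals mark a match to any of the 7 motifs searched on both strands.
Slc25a34: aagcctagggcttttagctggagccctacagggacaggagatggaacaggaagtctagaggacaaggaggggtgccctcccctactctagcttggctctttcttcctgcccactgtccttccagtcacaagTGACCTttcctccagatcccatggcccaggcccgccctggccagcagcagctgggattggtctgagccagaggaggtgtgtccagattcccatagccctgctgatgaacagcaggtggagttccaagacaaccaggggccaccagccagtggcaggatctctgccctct
Ffar4: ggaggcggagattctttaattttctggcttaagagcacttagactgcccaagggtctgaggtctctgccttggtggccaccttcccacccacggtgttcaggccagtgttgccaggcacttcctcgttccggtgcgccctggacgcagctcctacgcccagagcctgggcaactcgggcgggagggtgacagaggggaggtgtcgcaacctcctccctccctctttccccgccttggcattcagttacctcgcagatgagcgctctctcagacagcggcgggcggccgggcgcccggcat
Lrch2: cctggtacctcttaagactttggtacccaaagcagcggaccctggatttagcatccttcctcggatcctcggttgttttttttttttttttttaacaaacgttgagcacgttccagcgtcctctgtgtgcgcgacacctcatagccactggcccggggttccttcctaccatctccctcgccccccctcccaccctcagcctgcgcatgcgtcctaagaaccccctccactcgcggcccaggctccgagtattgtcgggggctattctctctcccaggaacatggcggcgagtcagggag
Gxylt2: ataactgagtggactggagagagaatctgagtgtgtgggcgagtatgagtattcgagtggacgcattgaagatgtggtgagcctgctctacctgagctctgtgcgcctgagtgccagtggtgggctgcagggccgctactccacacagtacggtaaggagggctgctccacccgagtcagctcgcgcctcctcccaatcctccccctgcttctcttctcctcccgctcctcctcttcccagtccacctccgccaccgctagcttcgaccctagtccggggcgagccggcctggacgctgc
The motifs were TGATGNAA for ATF4, TGACNNNGC for NRF2, TGANTCA for AP-1, TGACGTCA for CRE, CACGTG for the E-box, TCACNCCAC for the SRE and AGGTCA for the PPAR half-site, whose opposite strand can share letters with TGACNNNGC. Of 27025 promoters of the same length in the table, 4.06% held the ATF4 motif, 12.5% NRF2, 7.93% AP-1, 1.88% CRE, 7.24% the E-box, 1.22% SRE and 16% the PPAR half-site. Slc25a34 held 1 match, a PPAR half-site on the opposite strand at bases 132 to 137, and the other 3 promoters held none. The 4 promoters had GC contents of 59%, 63.7%, 57.3% and 62%, in the order shown.

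**Figure D2:**
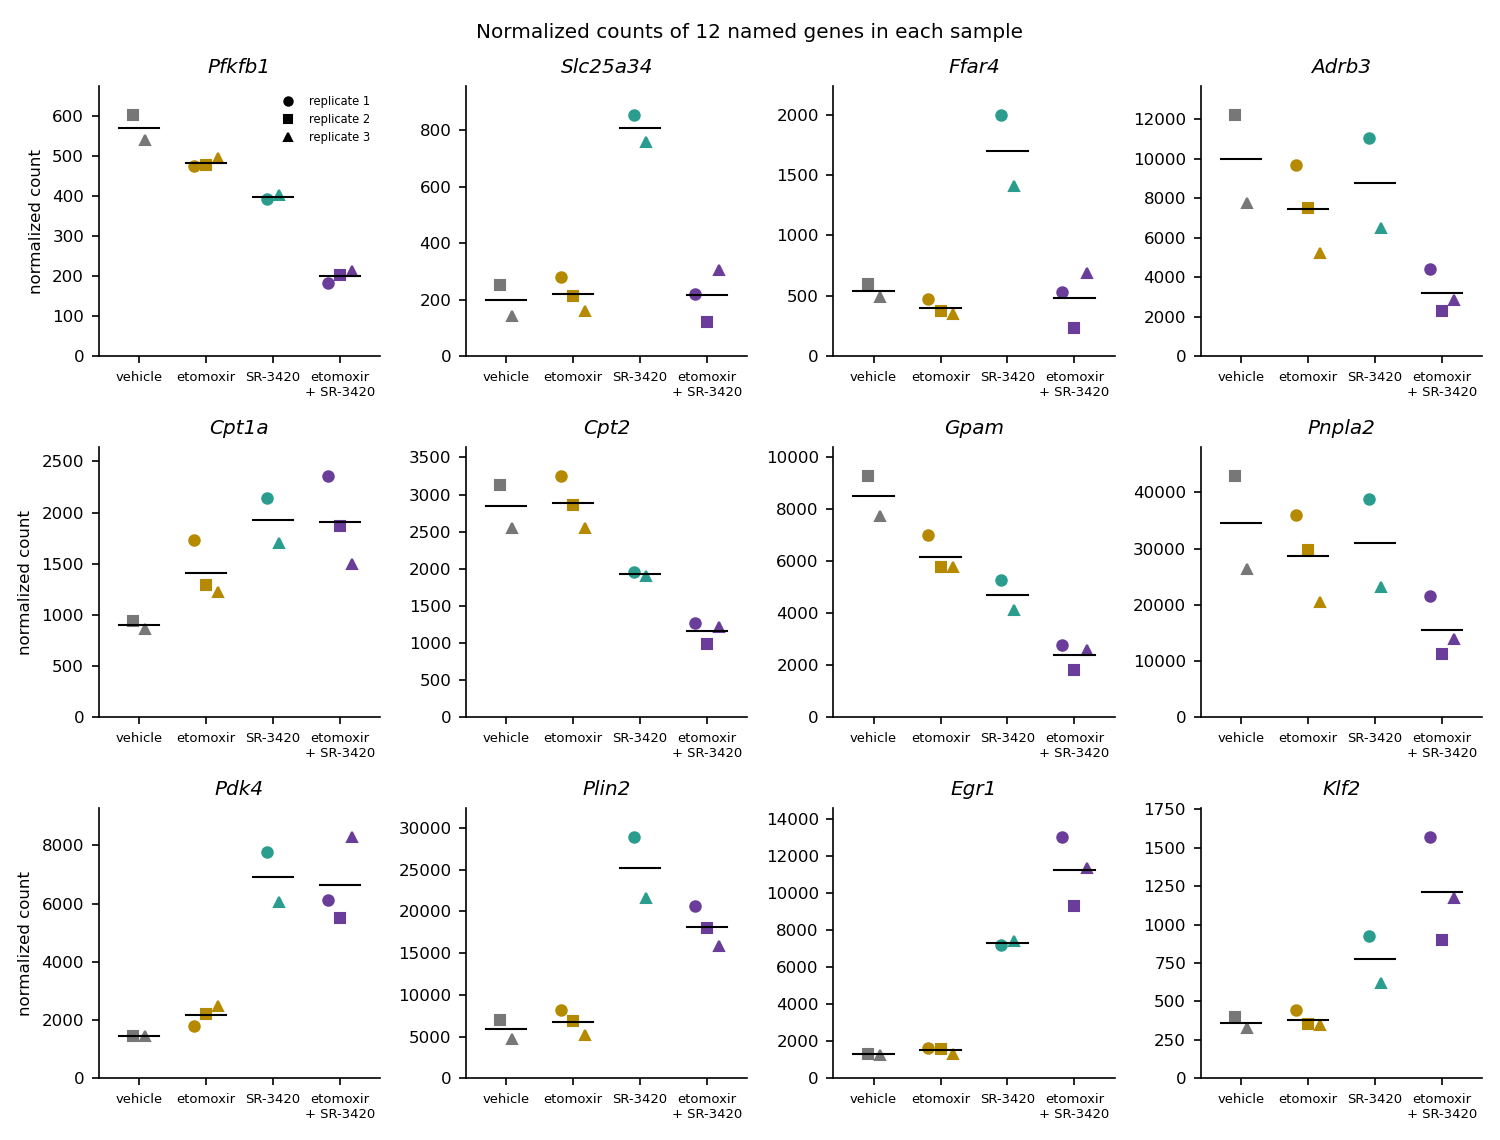
Normalized counts (y axis, from 0) of 12 named genes in each of the 10 samples without triacsin C, by group on the x axis, with a symbol for each replicate number and a line at the group mean. Pfkfb1, Slc25a34, Ffar4, Adrb3, Cpt2, Gpam, Pnpla2 and Plin2 were lower in all 3 etomoxir + SR-3420 samples than in both SR-3420 samples and Egr1 was higher, whereas the groups overlap for Cpt1a, Pdk4 and Klf2.

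For gene lists, the counts below are those of the fit with the block unless another is named, and the background is 5.95% of all genes tested higher and 8.42% lower. Counts with the GC trend removed and no block (in brackets after a GC count, "without the block") are given for each list, beside 0.127% higher and 0.904% lower over all genes with a known GC content, of which 2229 had an unadjusted p under 0.05 in edgeR. Without the block and with no GC correction no member of any of the 32 lists passed in edgeR, so a list has only its median in that fit, to be read beside −0.00 over all genes tested (−0.01 with the block).

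Part of etomoxir's own pathway was called lower. Of 12 genes of the carnitine shuttle and of malonyl-CoA control 7 fell and none rose, with a median log2 fold change of −0.53 (−0.52 without the block). Their median GC content was 51.9%, and with the GC trend also removed 5 fell at a median of −0.43 (3 fell without the block). Cpt1a, the CPT1 form of most tissues outside muscle and the target of etomoxir, had 2140.4 and 1704 normalized counts in the SR-3420 samples and 2357, 1871 and 1501 in the etomoxir + SR-3420 samples. The groups overlapped fully and the log2 fold change was −0.01 without and 0.01 with the block (SE 0.10, adjusted p = 0.942, edgeR). Without SR-3420, Cpt1a stood at 941 and 866 in the vehicle samples and at 1730.0, 1288 and 1224 in the etomoxir samples, a difference that did not pass (adjusted p = 0.123, edgeR with the block). Cpt1b, the muscle and brown fat form, was scarce, with 69.7 and 57.9 against 40.6, 38.5 and 44.5 normalized counts, and its log2 fold change was −0.66 (SE 0.21, adjusted p = 0.0472, edgeR with the block; 0.133 with the GC trend also removed).

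Cpt2, which returns the acyl group to coenzyme A inside the mitochondrion, had 1962 and 1907 normalized counts in the SR-3420 samples and 1273, 987 and 1222 in the etomoxir + SR-3420 samples. No sample of either group came near the other group, and Cpt2 fell with a log2 fold change of −0.74 (SE 0.14, adjusted p = 0.0241, edgeR with the block; 0.0195 with the GC trend removed and no block). The carnitine carrier Slc25a20 did not differ detectably, at −0.07 (SE 0.11). Crat, which joins acetyl groups to carnitine, fell with a log2 fold change of −0.88. So did Acaca, which makes malonyl-CoA, the natural inhibitor of CPT1 (−0.58), and the carnitine transporter of the cell surface Slc22a5 (−0.49). For etomoxir against vehicle, Acaca stood at −0.53 (adjusted p = 0.186, edgeR with the block). With the GC trend also removed Acaca fell there (−0.56, adjusted p = 0.0300, edgeR).

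In mitochondrial β-oxidation 7 of 19 genes fell and none rose (median −0.34, −0.34 without the block), among them Eci1 (−0.62), Acads (−0.77), Acaa2 (−0.63) and Acadvl (−0.43), which act on chains of different length. With the GC trend also removed 9 fell, at a median of −0.29, but not Acadvl (adjusted p = 0.0961, edgeR), and none of the 19 passed with the GC trend removed and no block. In peroxisomal oxidation 7 of 18 fell and none rose (median −0.37, −0.36 without the block), with Acaa1a at −0.84, Ech1 at −0.56 and Pex11a, which takes part in the division of peroxisomes, at −0.66. Here 10 fell with the GC trend also removed, and 1 without the block. Median GC contents were 50.2% and 49.1%.

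PPAR target genes of lipid use were called lower more often than higher. Of 22 genes 9 fell and none rose (median −0.34, GC content 52.2%), and 19 lay below 0. With the GC trend also removed 12 fell and 1 rose at a median of −0.45 (1 fell and none rose without the block). Fabp3 had the lowest log2 fold change of the list with the block (−1.32) and was called lower, but it was scarce. Its normalized counts were 26.0 and 15.4 in the SR-3420 samples and 9.15, 10.4 and 5.87 in the etomoxir + SR-3420 samples. Pdk4 and Angptl4, described next, were not among the 9 that fell. Without SR-3420 the list median was 0.11 with the block. Pdk4, the kinase that shuts off pyruvate dehydrogenase, had 7757 and 6066 normalized counts in the SR-3420 samples and 6113, 5516 and 8288 in the etomoxir + SR-3420 samples. These overlap, and its log2 fold change was −0.04 (SE 0.16, adjusted p = 0.872, edgeR with the block). Angptl4, an inhibitor of lipoprotein lipase, stood at 12841 and 13236 against 16721, 15156 and 15606 normalized counts, higher in all 3 etomoxir + SR-3420 samples. It was the member that rose with the GC trend also removed (0.30, adjusted p = 0.0349, edgeR; 0.0959 with the block alone) and was picked after its values were seen.

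Proteins of the lipid droplet showed the lowest list median. Of 17 lipases and droplet proteins 12 fell and 1 rose (median −0.77, −0.80 without the block), at a median GC content of 55.3%, and with the GC trend also removed 13 fell and 1 rose at a median of −0.53. In the fit with the GC trend removed and no block, 2 fell and none rose. Pnpla2, the gene of ATGL itself, had 38736 and 23248 normalized counts in the SR-3420 samples and 21504, 11239 and 13929 in the etomoxir + SR-3420 samples. The lowest SR-3420 sample lay just above the highest etomoxir + SR-3420 sample, and in each group replicate 1 was the highest. Pnpla2 fell by 1.00 on the log2 scale (SE 0.22, adjusted p = 0.0297, edgeR with the block; 0.0474 with the GC trend removed and no block). The monoglyceride lipase Mgll fell as well (−0.92), and so did Bscl2 (−0.91), which codes for seipin, and the droplet coats Plin5 (−1.16), Cidec (−0.93) and Plin4 (−0.87). Plin2, a droplet coat and PPAR target, had 28924 and 21555 against 20628, 18022 and 15864 normalized counts. Its groups did not overlap and it fell with a log2 fold change of −0.52 (SE 0.14, adjusted p = 0.0353, edgeR with the block).

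Of 20 genes of the uptake and activation of fatty acids 5 fell and none rose (median −0.24, GC content 50.2%), and 8 fell with the GC trend also removed (median −0.14; 1 fell without the block). Those that fell with the block included the binding proteins Fabp5 (−0.98) and the scarce Fabp3 (−1.32) and the transporters Slc27a1 (−0.84) and Slc27a4 (−0.54). Fabp5 had 11018 and 6458 normalized counts in the SR-3420 samples and 5856, 2959.7 and 4008 in the etomoxir + SR-3420 samples, at a GC content of 45.6%. Its log2 fold change was larger in size with the GC trend also removed (−1.20).

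Synthesis of triacylglycerol is the other route of a fatty acid. Of 14 genes 6 fell and none rose (median −0.39, GC content 53.2%), and the same number fell with the GC trend also removed (median −0.29; 3 fell without the block). Gpam, the mitochondrial enzyme of the first acylation step, had 5264 and 4134 normalized counts in the SR-3420 samples and 2769, 1809.7 and 2584 in the etomoxir + SR-3420 samples. The groups were well apart, and Gpam fell with a log2 fold change of −0.95 (SE 0.16, adjusted p = 0.0198, edgeR with the block; 0.0245 with the GC trend removed and no block). Agpat2 and Agpat3, of the next step, fell with log2 fold changes of −1.25 and −0.75, and Dgat2, of the last step, with −0.70.

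Fatty acid and sterol synthesis, which SREBP factors control, had list medians below 0 for etomoxir both with and without SR-3420. In fatty acid synthesis and desaturation 6 of 14 fell and none rose (median −0.41, GC content 52.2%; −0.36 without SR-3420 and without the block), and 8 fell with the GC trend also removed (2 fell without the block). Fasn, the fatty acid synthase, had 91286 and 48913 normalized counts in the SR-3420 samples and 47914, 26068 and 26124 in the etomoxir + SR-3420 samples. The lower SR-3420 sample exceeded the highest etomoxir + SR-3420 sample by little, and Fasn fell with a log2 fold change of −1.09 (SE 0.21, adjusted p = 0.0241, edgeR with the block). Acly (−0.57) and Fads2 (−0.54) fell too. For etomoxir against vehicle, 0 genes of this list passed in edgeR with the block, and Fasn stood at −1.01 (adjusted p = 0.123). In the fit that also removed the GC trend, Fasn (−0.85, adjusted p = 0.00303), Acly (−0.47, 0.0188) and Fads2 (−0.38, 0.0202) fell without SR-3420 in edgeR.

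Of 24 genes of cholesterol synthesis and SREBP2 targets 9 fell and none rose (median −0.38, GC content 50.5%; −0.38 without SR-3420 and without the block), and 13 fell with the GC trend also removed (5 fell without the block). Sqle, which makes squalene epoxide, had 2491 and 2796 normalized counts in the SR-3420 samples, 1730.4, 1953 and 1993 in the etomoxir + SR-3420 samples, 3820.5 and 3819 in the vehicle samples and 2715, 2719 and 2590.2 in the etomoxir samples. It fell with a log2 fold change of −0.50 (SE 0.10, adjusted p = 0.0241, edgeR with the block; 0.0126 with the GC trend removed and no block). Without SR-3420 etomoxir's log2 fold change was −0.49 (adjusted p = 0.112, edgeR with the block), and with the GC trend removed it passed without the block (−0.52, adjusted p = 0.00856, edgeR) and with it (−0.51, adjusted p = 0.0024, edgeR). The difference between both was −0.01 (SE 0.14) with the block. Dhcr7 (−0.92) and Mvd (−1.14) fell as well and passed with the GC trend removed in both fits.

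Of 10 LXR and oxysterol genes 7 fell and none rose (median −0.62, GC content 55.4%), and 6 fell with the GC trend also removed (median −0.40; 1 fell without the block). Abca1, the cholesterol exporter, had 2634 and 2758 normalized counts in the SR-3420 samples and 1666, 1379 and 2026 in the etomoxir + SR-3420 samples. It fell with a log2 fold change of −0.61 (SE 0.12, adjusted p = 0.0267, edgeR with the block; 0.0168 with the GC trend removed and no block). Nr1h3, the gene of LXRα (−0.87), the exporter Abcg1 (−0.68) and Lpcat3 (−0.51), which remodels phospholipids, fell too. For etomoxir without SR-3420 the list median was −0.40 with the block, and no member passed in edgeR. Abca1 stood there at −0.59 (adjusted p = 0.123) and Abcg1 at −0.82 (adjusted p = 0.164). With the GC trend also removed, Abca1 (−0.67, adjusted p = 0.00182) and Abcg1 (−0.72, 0.0211) fell without SR-3420 in edgeR, whereas Nr1h3 and Lpcat3 did not pass.

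Genes that set the use of glucose were called lower more often than higher. In pyruvate dehydrogenase control 4 of 13 fell and 1 rose (median −0.19, GC content 46.4%), and 8 fell and 1 rose with the GC trend also removed (median −0.38; 1 fell and none rose without the block). Pdp2, the phosphatase that activates the complex, fell with a log2 fold change of −0.71. The kinase Pdk2 (−0.88) and the pyruvate carrier subunit Mpc1 (−0.52) fell, and the kinase Pdk3 rose (0.78). Pdk3 had 167 and 401 normalized counts in the SR-3420 samples and 278, 516 and 589 in the etomoxir + SR-3420 samples, so its groups overlapped.

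In glycolysis and HIF targets 10 of 28 fell and none rose (median −0.34, GC content 53.3%), while 11 fell and 3 rose with the GC trend also removed (median −0.19) and none passed with it removed and no block. Pgam1 (−0.64) and Tpi1 (−0.61) are enzymes of glycolysis, Slc2a4 (−0.75) is the insulin-regulated glucose transporter and Egln3 (−0.97) a HIF prolyl hydroxylase. Egln3 had 4015 and 4220.0 normalized counts in the SR-3420 samples and 1855, 1240.5 and 3212 in the etomoxir + SR-3420 samples, where replicate 3 lay closest to SR-3420. Of 8 genes of ketone bodies and glyceroneogenesis 2 fell and none rose (1 fell with the GC trend also removed, none without the block; median −0.15, GC content 52%), among them Gpd1 (−0.80), which supplies glycerol phosphate and passed with the GC trend also removed (adjusted p = 0.0213, edgeR).

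Brown fat genes and adipokines had falls too. Of 16 thermogenic genes 9 fell and none rose (median −0.61, −0.57 without the block), at a median GC content of 53.1%, and 8 fell and 1 rose with the GC trend also removed (1 fell and none rose without the block). Besides Adrb3 those that fell with the block included the potassium channel Kcnk3 (−1.22) and the muscle-type cytochrome oxidase subunit Cox8b (−0.64). Prdm16 (−0.67), the factor that fixes brown fat identity, fell too. Ucp1 (0.23, adjusted p = 0.734), Ppargc1a (−0.16, adjusted p = 0.548) and Elovl3 (−0.37, adjusted p = 0.331) did not pass in edgeR with the block, and Dio2 was not tested. With the GC trend also removed, Ppargc1a fell (−0.64, adjusted p = 0.0381, edgeR), whereas Ucp1 and Elovl3 did not pass. Kcnk3 had 7211 and 3025 normalized counts in the SR-3420 samples and 2904, 1384 and 1998 in the etomoxir + SR-3420 samples. SR-3420 replicate 1 stood far above all others.

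Of 15 adipokines and adipogenic factors 6 fell and none rose (median −0.48, GC content 49.5%), and 8 fell with the GC trend also removed (median −0.50; 2 of 14 fell without the block). Rbp4, which carries retinol in blood, had 1015 and 916 normalized counts in the SR-3420 samples and 461, 208 and 494 in the etomoxir + SR-3420 samples. Its groups did not overlap, and it fell with a log2 fold change of −1.29 (SE 0.27, adjusted p = 0.0269, edgeR with the block; 0.0429 with the GC trend removed and no block). Adiponectin, Adipoq, had 32192 and 23884 against 19216, 11479.7 and 16554 normalized counts and fell by 0.81 on the log2 scale with the block and by 0.93 with the GC trend also removed, at a GC content of 47.5%. Resistin, Retn (−0.75), and adipsin, Cfd (−1.34), fell too, the latter with 217767 and 88295 against 96366, 34501 and 44957 normalized counts, which overlap.

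Some mitochondrial genes of the nucleus fell as well. Of 78 respiratory chain subunits 34 fell and none rose (median −0.37, GC content 51.6%), and 37 fell with the GC trend also removed (median −0.29), but none passed with the GC trend removed and no block, where 2229 genes differed at an unadjusted p under 0.05. Sdha had 13031 and 12130 normalized counts in the SR-3420 samples and 9155, 7663 and 9486 in the etomoxir + SR-3420 samples. The groups did not overlap, and it fell by 0.53 on the log2 scale with the block. Cyc1 (−0.79) and Ndufa9 (−0.63) fell too. Of the mitochondrial ribosomal proteins, 12 of 77 were lower and none higher (median −0.18, GC content 51.5%), among them Mrps34 (−0.87), Mrpl57 (−0.71), Mrpl2 (−0.63) and Mrpl36 (−0.56). Of these 77, 14 fell and 1 rose with the GC trend also removed, and none passed without the block. Of 77 cytosolic ribosomal proteins 4 rose and 2 fell (median −0.02; 6 and 2 with the GC trend also removed, none without the block), including Rpl22l1 (1.57), Rpl27a (0.64), Rplp2 (−0.67) and Rplp1 (−0.65), the last not with the GC trend also removed (adjusted p = 0.0645, edgeR).

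**Figure D3:**
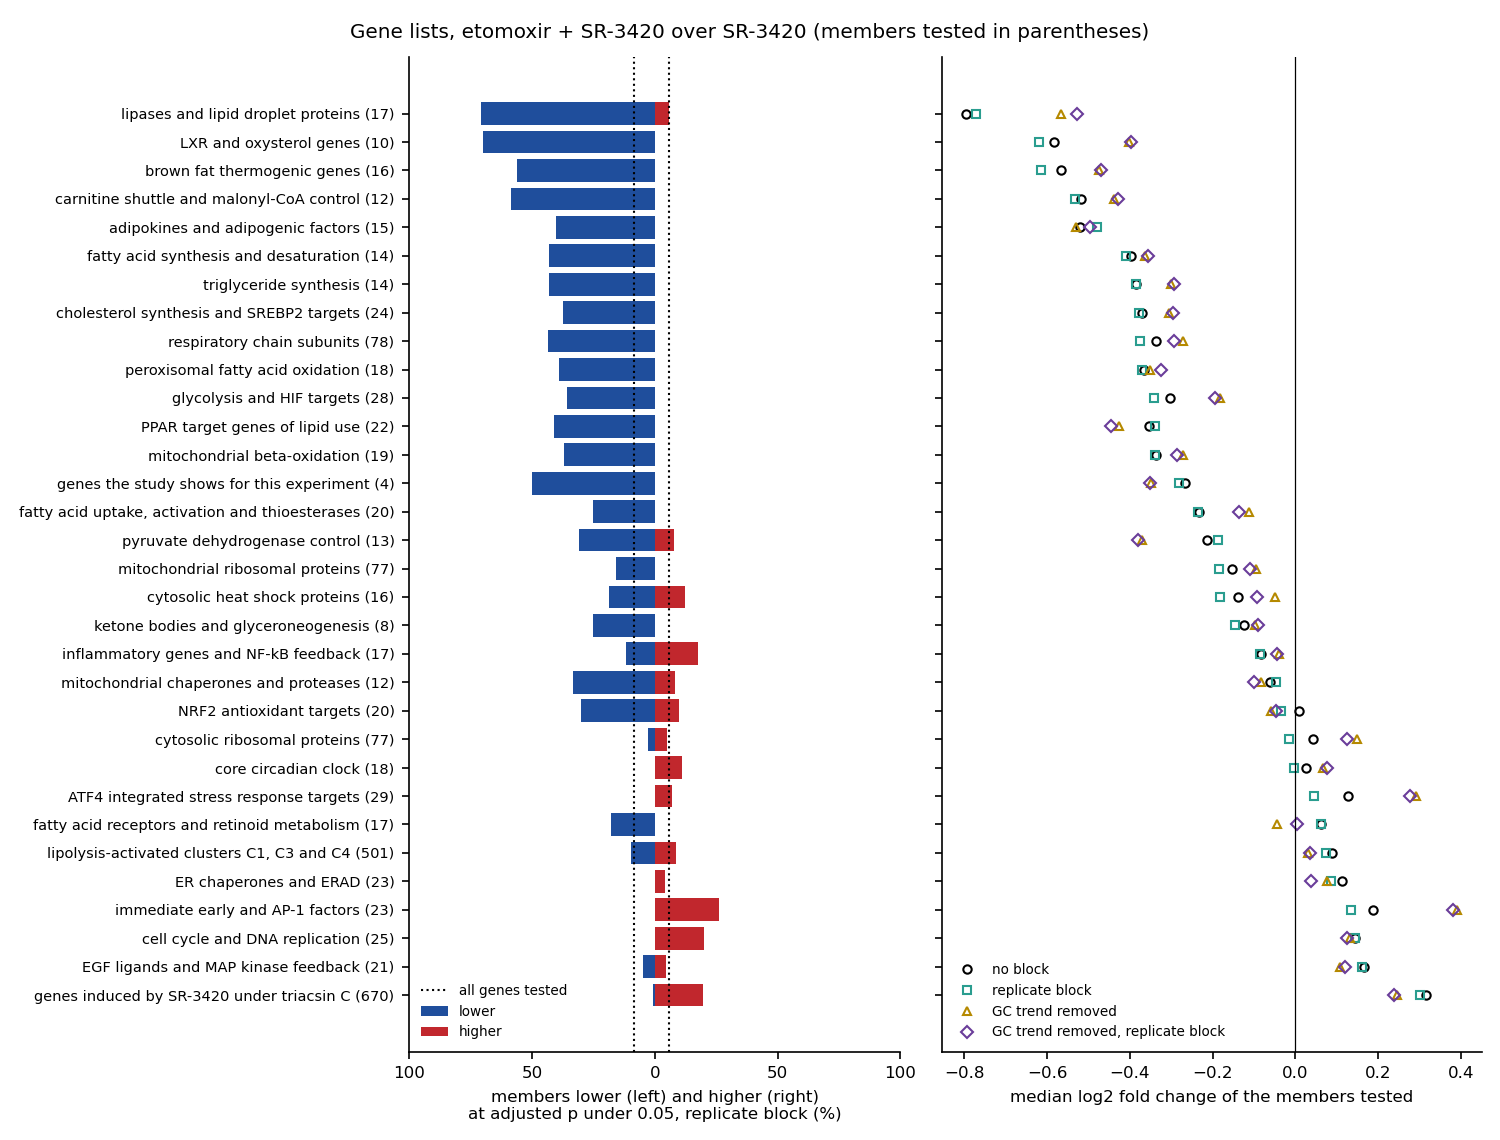
The share of members that fell (left of 0) or rose (right of 0) with the replicate block, in percent of the members tested, and the median log2 fold change of each list in the 4 fits, for 32 gene lists sorted by the median with the block. Dotted lines mark 8.42% lower and 5.95% higher, the shares of all genes tested; lipases and lipid droplet proteins have the lowest median (−0.77) and the genes induced by SR-3420 under triacsin C the highest (0.30).

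Of 29 ATF4 targets of the integrated stress response 2 rose and none fell (median 0.04, GC content 54.1%), and 9 rose with the GC trend also removed (median 0.28; 1 rose without the block). Nupr1, a stress-induced nuclear protein, had 662 and 906 normalized counts in the SR-3420 samples and 1028, 1259 and 1057 in the etomoxir + SR-3420 samples, and rose with a log2 fold change of 0.48 (0.74 with the GC trend also removed). The cystine transporter Slc7a11 rose with the block (0.92) but not with the GC trend also removed (0.31, adjusted p = 0.159, edgeR). Among 23 ER chaperones and ERAD genes 1 rose and none fell (median 0.09, GC content 48.9%), namely Pdia3 (0.55), and 3 rose with the GC trend also removed but none without the block.

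Of 20 NRF2 targets 2 rose and 6 fell (median −0.03, GC content 49.9%), with 2 and 7 when the GC trend was also removed and 1 fall without the block. The 4 named among those that fell, G6pdx (−0.49), Pgd (−0.53), Tkt (−0.64) and Taldo1 (−0.55), are enzymes of the pentose phosphate pathway, which supplies NADPH. Of 16 cytosolic heat shock proteins 2 rose and 3 fell (median −0.18, GC content 51.7%; 4 fell with the GC trend also removed, none passed without the block): Hspb1 (−0.87), Hspa1b (−1.04) and Hspa1a (−0.92) fell, and Chordc1 rose (0.90). Hspa1a and Hspa1b are near-identical copies whose reads may be split between them, and the samples of both overlapped between the groups. Of 12 mitochondrial chaperones and proteases 1 rose and 4 fell (median −0.05, GC content 51.9%; 3 fell with the GC trend also removed, none passed without the block), with Clpp at −0.80, Lonp1 at −0.65, Trap1 at −0.43 and Yme1l1 at 1.17. Chordc1 and Yme1l1, at GC contents of 39.2% and 38%, did not pass with the GC trend also removed (adjusted p = 0.223 and 0.107, edgeR).

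Immediate early and AP-1 factors, which growth signals switch on within minutes, had no falls in any fit and rises in all but the one without block and correction. Of 23 genes 6 rose and none fell with the block (26.1% against 5.95%; median 0.13), 4 rose with the GC trend removed and no block and 12 with both (median 0.38), and the members' median GC content was 54.7%. Egr1 had 7233 and 7449 normalized counts in the SR-3420 samples and 13048, 9307 and 11349.8 in the etomoxir + SR-3420 samples. All 3 lay above both SR-3420 samples, which were close together. Egr1 rose with a log2 fold change of 0.63 (SE 0.13, adjusted p = 0.0269, edgeR with the block; 0.78 and adjusted p = 0.0108 with the GC trend removed and no block). Without SR-3420 it stood at 1317 and 1268 in vehicle and 1663, 1579 and 1336 in etomoxir, and the difference between the etomoxir effects with and without SR-3420 was 0.45 (SE 0.18, adjusted p = 0.844, edgeR with the block). Klf2 had 926 and 621 against 1571, 901 and 1175 normalized counts, of which only etomoxir + SR-3420 replicate 2 fell into the range of SR-3420. It rose with a log2 fold change of 0.67 (SE 0.18, adjusted p = 0.038, edgeR with the block), and Klf6 (0.85) and Ier3 (0.43) rose too.

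Of 21 EGF ligands and genes of MAP kinase feedback 1 rose and 1 fell, both shares (4.76%) below those of all genes tested (median 0.16, GC content 50.8%), the ligand Ereg (0.83) and the phosphatase Dusp4 (−0.50), and neither passed with the GC trend also removed (adjusted p = 0.345 and 0.156, edgeR), where 3 others rose (1 rose without the block). Of 17 inflammatory genes 3 rose and 2 fell (median −0.09, GC content 50.1%), with 2 and 4 when the GC trend was also removed and 1 fall without the block. Zc3h12a, an RNase that degrades cytokine mRNAs, fell from 460.3 and 404 to 259, 197 and 196 normalized counts (−1.04) and passed in all fits but the one without block and correction, and the NF-kB inhibitor Nfkbia fell as well (−0.55). Ccl7 (0.85) and Ptgs2 (0.77) rose, the latter not with the GC trend also removed (adjusted p = 0.328, edgeR).

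Of 18 clock genes 2 rose and none fell (median −0.00, GC content 52.1%), and 2 rose with the GC trend also removed (1 rose without the block). Ciart, a repressor of the clock, had 185 and 218 normalized counts in the SR-3420 samples and 319, 309 and 283 in the etomoxir + SR-3420 samples, and rose with a log2 fold change of 0.54 (0.71 and adjusted p = 0.0243 with the GC trend removed and no block, edgeR). Nr1d2 rose with the block alone (0.60; 0.10 with the GC trend also removed). Of 25 cell cycle genes 5 rose and none fell (median 0.14, GC content 47.3%), and 3 rose and 1 fell with the GC trend also removed (1 rose without the block). Rrm2, a subunit of ribonucleotide reductase, had 1974 and 2599 against 2657, 4192 and 4056 normalized counts and rose with a log2 fold change of 0.69. Mki67 (0.65), Top2a (0.69) and Bub1 (1.05) rose too, the last 2 not with the GC trend also removed.

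Of 17 fatty acid receptors and genes of retinoid metabolism 3 fell and none rose (median 0.06, GC content 52.4%), and 4 fell and 2 rose with the GC trend also removed (2 fell without the block). Besides Ffar4, those with the block were Ffar2, the receptor for short-chain fatty acids, and the retinoic acid receptor Rara (−0.51). Ffar2 had 666 and 527 normalized counts in the SR-3420 samples and 317, 208 and 328 in the etomoxir + SR-3420 samples. It fell with a log2 fold change of −1.06 (SE 0.20, adjusted p = 0.0241, edgeR with the block; 0.0214 with the GC trend removed and no block), and Rara did not pass with the GC trend also removed (adjusted p = 0.135, edgeR).

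The study shows Pdk4, Plin2, Ffar4 and Cyp26b1 with values of these samples, so their directions are not independent evidence. Pdk4 and Plin2 are also among its examples from another experiment. It gives Pdk4 and Plin2 as genes whose induction by SR-3420 the inhibitors did not impair. Ffar4 and Cyp26b1 are its examples of genes that triacsin C or etomoxir lowered. Of the 4, Ffar4 and Plin2 fell and none rose with the block, and 1 fell with the GC trend removed and no block. Cyp26b1, which degrades retinoic acid, had 301 and 194 normalized counts in the SR-3420 samples, 354, 322 and 262 in the etomoxir + SR-3420 samples, 76.1 and 71 in the vehicle samples and 139.8, 134 and 117 in the etomoxir samples. SR-3420 replicate 3 was the lowest of those with SR-3420, and the log2 fold change was 0.35 (SE 0.14, adjusted p = 0.0941, edgeR with the block) and 0.63 with the GC trend also removed (adjusted p = 0.014).

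Genes induced by lipolysis in other samples gave 2 lists. The study's lipolysis-activated clusters C1, C3 and C4 come from another experiment and share no sample with this one, and of their 501 genes tested 43 rose (8.58% against 5.95%) and 49 fell (9.78% against 8.42%), with a median of 0.07. After removal of the GC trend 4 rose and 14 fell without the block, and 58 and 60 with it, of 493. Among them Tspan18, a membrane protein, had 1045 and 1143 normalized counts in the SR-3420 samples and 405, 266 and 573 in the etomoxir + SR-3420 samples. The groups lay far apart, and it fell with a log2 fold change of −1.37 (SE 0.21, adjusted p = 0.0198, edgeR with the block). The kinase adaptor Trib1 (−0.55), Slc25a34 and Nat8l (−1.24), which makes N-acetylaspartate in brown fat, fell too, Trib1 not with the GC trend also removed.

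The other list held 670 genes that SR-3420 raised under triacsin C, by a log2 fold change of at least 1, in samples that this comparison does not hold. Of these, 132 rose (19.7%) and 6 fell (0.896%) when etomoxir was added to SR-3420, with a median of 0.30 (0.32 without the block). Their median GC content was 48.5%, and with the GC trend also removed 135 rose and 11 fell at a median of 0.24 (13 and 1 without the block). Sgk1, a kinase induced by glucocorticoids and growth factors, had 1617 and 2746 normalized counts in the SR-3420 samples and 2891, 5321 and 4749 in the etomoxir + SR-3420 samples. It rose with a log2 fold change of 0.98 (SE 0.18, adjusted p = 0.0237, edgeR with the block), and Cdv3 (0.85), Cobll1 (0.73) and Arhgap42 (0.73) rose too.

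The effect of etomoxir without SR-3420 was measured in the same 4 fits. For etomoxir against vehicle, which share no sample with the groups above, edgeR called 3 genes (0.0235%) without and 6 (0.0469%) with the block, and, with the GC trend removed, 24 (0.190%) and 96 (0.761%). The 3 were Hmox1, Fgf21 and Bmf, and they were named here after their values were seen. The difference between the etomoxir effects with and without SR-3420 passed for 0 genes without the block, where 307 genes differed at an unadjusted p under 0.05 in edgeR and DESeq2 called 7, and for the same 3 genes (0.0235%) with the block. With the GC trend removed it passed for 1 gene (0.00793%) without and 12 (0.0951%) with the block. Leaving out vehicle replicate 3 left 0 genes called for etomoxir against vehicle without the block (346 at an unadjusted p under 0.05), and leaving out vehicle replicate 2 or etomoxir replicate 1 or 2 left 2 each. With the block, etomoxir against vehicle gave 2 genes without vehicle replicate 2 or 3, 7 without etomoxir replicate 1 and 3 without etomoxir replicate 2 or 3.

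Calls of the difference with the block were fewer when any 1 of the 10 samples was left out. The count was 2 without SR-3420 replicate 1 (Hmox1 and Bmf), 1 without etomoxir replicate 1 or etomoxir + SR-3420 replicate 2 (Hmox1), and 0 in edgeR without vehicle replicate 2 or 3, SR-3420 replicate 3, etomoxir replicate 2 or 3 or etomoxir + SR-3420 replicate 1 or 3 (717, 228, 638, 381, 769, 1238 and 841 genes at an unadjusted p under 0.05). Fgf21 passed in none of these fits. The difference ran between −1.54 and −1.25 for Hmox1, between −2.50 and −1.89 for Fgf21 and between 1.92 and 2.89 for Bmf.

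Hmox1, the heme oxygenase that NRF2 induces, had 3537 and 3258 normalized counts in the vehicle samples and 11159, 10391 and 9730.4 in the etomoxir samples, but 12971 and 15774 in the SR-3420 samples and 15646, 21113 and 16148 in the etomoxir + SR-3420 samples. All samples with either agent lay far above vehicle, and the SR-3420 and etomoxir + SR-3420 groups overlapped. The etomoxir log2 fold change was 1.66 without SR-3420 (SE 0.14, adjusted p = 0.000105) and 0.24 with it (SE 0.13, adjusted p = 0.187), and the difference was −1.41 (SE 0.19, adjusted p = 0.0344, all edgeR with the block). Fgf21, a secreted hormone of the stress response, had 12.5 and 7.88 normalized counts in vehicle, 46, 49.5 and 44.9 in etomoxir, 141 and 131 in SR-3420 and 140.2, 143 and 149 in etomoxir + SR-3420. The 5 samples with SR-3420 hardly differed. Etomoxir gave a log2 fold change of 2.19 without SR-3420 (adjusted p = 0.00345) and of 0.04 with it, and the difference was −2.14 (SE 0.32, adjusted p = 0.0425, edgeR with the block).

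Bmf, a pro-apoptotic member of the BCL2 family, had 328 and 284 normalized counts in vehicle, 66.6, 68.6 and 70.8 in etomoxir, 38.6 and 17.2 in SR-3420 and 37.2, 25 and 25.2 in etomoxir + SR-3420. Every sample with etomoxir or SR-3420 was below both vehicle samples, and those with SR-3420 were the lowest. The etomoxir log2 fold change was −2.24 without SR-3420 (adjusted p = 0.000295) and 0.10 with it, and the difference was 2.34 (SE 0.35, adjusted p = 0.0425, edgeR with the block). With the block Angptl4 (0.80) and the MAP kinase inhibitor Spry4 (0.73) also rose and the lipogenic regulator Mid1ip1 fell (−0.80) in etomoxir against vehicle, and in the lipolytic state these stood at 0.27, 0.05 and −0.45. Mid1ip1 passed there too (adjusted p = 0.0339, edgeR with the block).

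**Figure D4:**
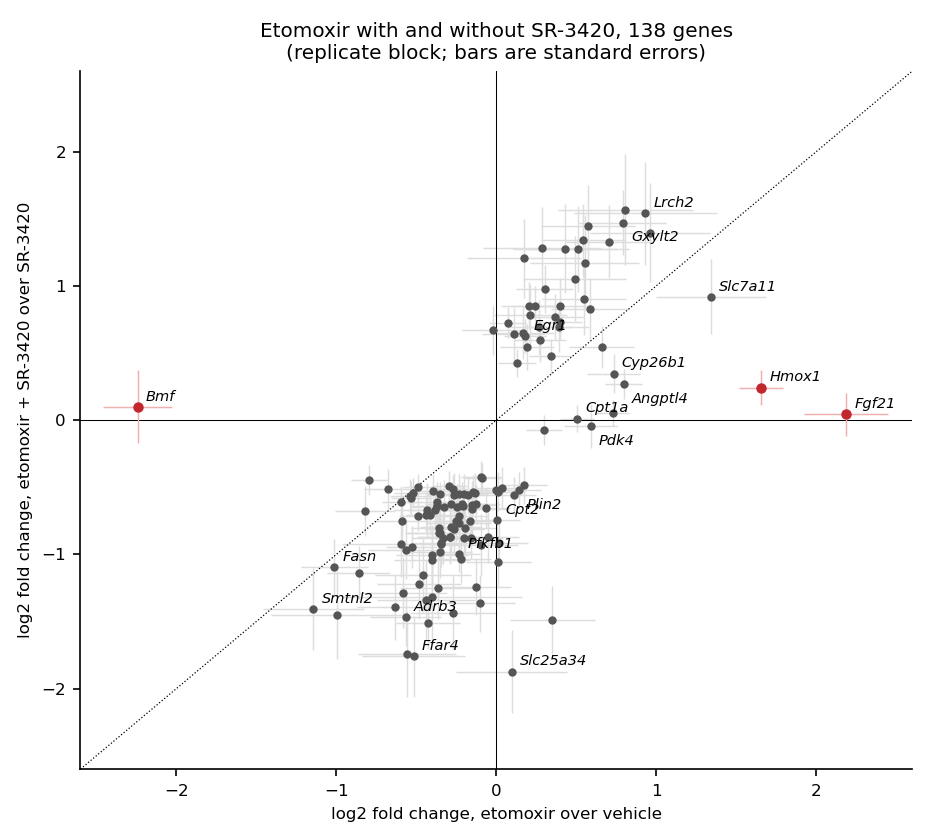
Log2 fold change of etomoxir over vehicle (x axis) and of etomoxir + SR-3420 over SR-3420 (y axis) for 138 genes, 132 named by the rule and 6 added after their values were seen, in the fit with the replicate block, with bars for standard errors and a dotted line where both are equal. Red marks Hmox1, Fgf21 and Bmf, whose 2 values differed with adjusted p of 0.0344, 0.0425 and 0.0425, and Slc25a34 lies far below 0 on the y axis and near 0 on the x axis.

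Across all genes tested the etomoxir log2 fold changes with and without SR-3420 correlated at 0.32 without the block and at 0.17 after the GC trend was removed; genes are not independent replicates, and both sets of values correlate with GC content.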

How the data were processed

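RNA was measured in 16 samples. Per the labels and methods, the authors aligned reads with STAR 2.4.2a to mm9, kept 1 read per position and length with HOMER, and deposited counts of reads per gene, whose use of strand is not stated. From these counts, edgeR 4.0.16 (TMM scaling, filterByExpr, quasi-likelihood test) in R 4.3.3 was fitted to 6 groups over all 16 samples, with no block or blocked by replicate number (the replicate block), for 12786 of 20295 genes. Genes were called at an adjusted p under 0.05. Named were up to 10 genes in each direction with the largest change in either fit (groups not overlapping, mean normalized count of at least 50), up to 4 members of each list with the smallest p with the block, and 8 genes of etomoxir's pathway or shown by the study, whatever their values; Hmox1, Fgf21, Bmf, Angptl4, Spry4 and Mid1ip1 were added after their values were seen. Some genes that meet this rule are not reported here. The members and lists were chosen with earlier results of these data known. Alternatives were DESeq2 1.42.0, limma 3.58.1, other filters and sample sets and leaving out each sample. Those that remove a trend over GC content (a spline with 5 degrees of freedom, as an offset in each sample) or length, and leaving out samples with the block for etomoxir alone and the difference, were chosen after seeing the data. Promoters are those of RefSeq. The scripts were tested on simulated data. Figures were drawn with Python 3.11.15 and matplotlib 3.10.9.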

Additional observations from a re-analysis of the deposited data

Results flagged for a closer look

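For 3 genes the effect of etomoxir differed between cells with and without SR-3420 by a test of that difference in edgeR with the replicate block, and all 3 were picked after their values were seen. The difference of the log2 fold changes was −1.41 for Hmox1 (adjusted p = 0.0344), −2.14 for Fgf21 (adjusted p = 0.0425) and 2.34 for Bmf (adjusted p = 0.0425). Without the block 0 genes passed in edgeR, where 307 had an unadjusted p under 0.05 and DESeq2 called 7. Leaving out 1 of the 10 samples in the fit with the replicate block left 0 to 2 of the calls, while the difference ran between −1.54 and −1.25 for Hmox1, −2.50 and −1.89 for Fgf21 and 1.92 and 2.89 for Bmf. The cause was not tested.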

How the results depend on the processing

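For etomoxir added to SR-3420, edgeR called 1 gene. The same call count came with DESeq2 size factors, with at least 10 counts in every sample and without genes that overlap another gene. It was 0 with no filter on low counts, with the 5 samples compared, with the 10 samples without triacsin C and at a log2 fold change of at least 1 in size (1335, 497, 747 and 1279 genes at an unadjusted p under 0.05 in edgeR), 89 with DESeq2 and 543 with limma voom and a correlation within replicate numbers. With the replicate block it was 1838 (761 higher, 1077 lower), with DESeq2 and the replicate block 3037 (1661 and 1376), with the replicate block on 5 samples 2053 (1331 and 722) and on 10 samples 3365 (1665 and 1700), so the balance of directions was not stable. With the GC trend removed it was 130 (1733 with the replicate block), and with GC and length trends removed 168 (1700 with the replicate block). Leaving out 1 sample gave 0 to 12 genes, and 0 to 3862 with the replicate block (0 and 1 without SR-3420 replicates 1 and 3; 3862, 175 and 456 without etomoxir + SR-3420 replicates 1, 2 and 3). With the GC trend removed these were 1, 264, 243, 35 and 414, and with the replicate block too 64, 730, 1665, 986 and 1848. Where 1 SR-3420 or vehicle sample is left, it is assumed to vary like the other groups. The cause was not tested.

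Etomoxir without SR-3420 gave 3 genes, 6 with the replicate block, 24 with the GC trend removed, 96 with both and 17 with DESeq2, and 0 to 3 when 1 sample was left out, or 2 to 7 with the replicate block. The difference between etomoxir effects gave 0 genes in edgeR, where 307 had an unadjusted p under 0.05. It gave 3 in the fit that holds the replicate block, 1 with the GC trend removed, 12 with both and 7 with DESeq2. Leaving out 1 sample gave 0 in each fit without the block, which already gave 0, and 0 to 2 with the replicate block (2 without SR-3420 replicate 1, 1 without etomoxir replicate 1 or etomoxir + SR-3420 replicate 2, otherwise 0, with 228 to 1238 genes at an unadjusted p under 0.05 in edgeR). The cause was not tested.

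Among 138 named genes, the direction was the same in 137 with the replicate block, with DESeq2 size factors and with DESeq2, and in 136 of 137 with the GC trend removed. The exception was the log2 fold change of Cpt1a, which was near 0 without the block (−0.01) and 0.0122 with the replicate block, 0.0665 with the GC trend removed, 0.10 with both, 0.00616 with DESeq2 size factors and 0.00519 with DESeq2. Leaving out 1 sample reversed Cpt1a (−0.19 to 0.16; 0.00544 without etomoxir + SR-3420 replicate 2, 0.14 without replicate 3), Slc25a20 (−0.25 to 0.10; 0.05 without etomoxir + SR-3420 replicate 1), Rplp1 (−1.09 to 0.00285), Pdk4 (0.13 without SR-3420 replicate 1, 0.06 without etomoxir + SR-3420 replicate 2), Bmf (−0.39 to 0.77; −0.39 without SR-3420 replicate 3, −0.16 without etomoxir + SR-3420 replicate 1) and Spry4 (−0.0286 to 0.0930; the lowest without etomoxir + SR-3420 replicate 3). The cause was not tested. Of 32 list medians, 31 moved by less than the spread between samples with the replicate block, 32 with DESeq2 size factors and 29 with the GC trend removed.

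Samples that share a replicate number are not said to share a batch. After group means were removed, 35 same-numbered pairs correlated at a mean of 0.41 (−0.29 to 0.83; 8 not over 0.1, of which 4 hold triacsin C replicate 1 and 4 etomoxir + SR-3420 replicate 2) and 71 other pairs at −0.20, and 11 of 16 samples correlated best with a sample of their own number, which is a hint from the data, not the design. Groups of 2 samples have deviations opposite by construction.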
